A study of Arabidopsis thaliana with 2 samples.

Results

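The WRKY family of transcription factors was followed in whole Arabidopsis thaliana seedlings that carry the arp6-1 mutation in the Col-0 background. The members were taken by gene ID from a list of 47 WRKY genes, by a rule that uses no measured value. Earlier results of these data were known when this list and the other gene lists were chosen. All 47 were found among the 33557 genes of the deposited tables, and the reference annotation names 72 genes of those tables WRKY, so that 25 WRKY-named genes lie outside the list. The seedlings were 10 days old, had grown at 17 °C in long days, and stayed at 17 °C until harvest 15 min into an experiment that began at ZT1, early in the light period. Both libraries belong to this one group, replicate 2 and replicate 1, and both carry the mutation. ARP6 is a subunit of the SWR1 complex, which places the histone variant H2A.Z in nucleosomes. No wild-type, warm-shifted or later sample was analysed here, so the values describe levels within this group and the difference between its duplicates.

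WRKY proteins bind DNA through the WRKY domain, named after its core, the heptapeptide WRKYGQK, which is followed by a zinc finger. The domain recognises the W-box, a short promoter element with the core TTGAC, which many WRKY genes carry in their own promoters. In leaves and roots the family is known for transcriptional responses to pathogens, wounding, salicylic acid, abscisic acid, drought and phosphate shortage, and for the control of senescence. Several members sit below mitogen-activated protein kinases, which are switched on within minutes of an attack or a touch. The family is divided into group I, usually with a pair of domains, groups IIa to IIe with a single domain, and group III with a variant zinc finger.

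The coding sequences of the members bear out the family name. In the annotation of TAIR10.1 every one of the 47 genes encodes the core motif at least once, 38 of them once and 9 of them in 2 copies, which makes 56 domains in all. The 9 genes with 2 copies are all in group I as listed here, and WRKY45 is the one gene placed in that group with a single copy. Its place there is unsure, since some classifications put it near group IIc. The motif reads WRKYGQK in 55 domains and WRKYGKK in 1, that of WRKY51. The 55 standard motifs are spelled by 46 different runs of codons, so the protein motif is shared more closely than the DNA. The lines below show the stretch of coding sequence around the motif, 39 bases in RefSeq TAIR10.1 on the coding strand, for the most abundant member (both domains), for the most abundant member of group IIa, and for the variant. Capitals mark the 7 codons of the motif.
WRKY33 first domain: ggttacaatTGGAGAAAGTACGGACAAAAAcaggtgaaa
WRKY33 second domain: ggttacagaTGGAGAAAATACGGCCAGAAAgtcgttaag
WRKY40: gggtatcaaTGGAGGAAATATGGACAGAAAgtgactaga
WRKY51: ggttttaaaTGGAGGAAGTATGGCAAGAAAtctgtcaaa

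The libraries held 12410991 counts over genes in replicate 2 and 20249142 in replicate 1. ARP6 itself (AT3G33520) had 7 counts in replicate 2 and 7 in replicate 1, and its span overlaps another gene's. Levels are given as TPM, computed here from counts and the exon lengths of TAIR10.1. These lengths can exceed the deposited span of a gene, so levels of different genes compare only roughly, and folds between genes are approximate. In replicate 2 WRKY46 was above WRKY11 here, with 94.5 and 90.9 TPM, but the authors' deposited TPM has 83.4 and 122.8. A mean is followed by the SD of the 2 libraries (n = 2). The difference between libraries is the ratio of replicate 2 to replicate 1 after TMM scaling of library size, with a 95% counting interval, and it was read in the 20568 genes with a mean count of at least 10. A gene is called higher or lower where this ratio passes 2-fold. There is 1 library on each side, so no p-value is given, and the intervals cover counting error only. The labels do not say that the duplicates came from separate cultures. They name a stranded and an unstranded TruSeq kit and a pair of sequencing centres for both libraries alike, so kit, centre and replicate cannot be told apart. The libraries stand apart in other respects. Chloroplast genes took 0.179% of the counts in replicate 2 and 0.777% in replicate 1, and ribosomal RNA 0.180% and 0.535%. Of 6 dehydration genes, known for their response to abscisic acid, drought or cold, 6 were higher in replicate 2, by 21.1-fold (KIN1, which has a near-identical copy, so that its reads are uncertain) to 875-fold (LEA7, whose span overlaps another gene's), and of 8 root markers 8 had a ratio below 1. Of all 20568 genes 9.84% were at least 2-fold higher in replicate 2, and 10361 had a ratio below 1. RAB18 had 1693 TPM in replicate 2 and 3.06 TPM in replicate 1, and RD29B 1276 and 3.22 TPM. RD29A had 840.2 and 23.9 TPM, and COR15A 812 and 25.4 TPM, so that these genes too were far higher in replicate 2. The 5 leaf markers had ratios between 0.892 (GAPB, the lowest in level) and 1.07 (RBCS1A, the highest). What part these differences have in those of the WRKY genes was not tested.

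The listed WRKY genes covered a wide range of levels in these seedlings. Of the 47 members 47 had a count, 45 reached a mean count of at least 10, and 28 had a mean level of at least 10 TPM. Their median level was 3.83 on the log2(TPM + 1) scale (3.84 in replicate 2 and 3.80 in replicate 1), beside 2.37 over all genes, many of which had no count. Among genes with a mean count of at least 10, the middle member by mean TPM, WRKY69 (rank 24 of 47), stood at percentile 43.6. The 25 WRKY-named genes outside the list had a median of 1.17, and 12 of them stayed below 1 TPM, against 2 of the 47 members. The members summed to 1712 TPM in replicate 2 and 1024 TPM in replicate 1, that is 0.171% and 0.102% of all transcripts by TPM. The order of the members was similar in both libraries (Spearman's rho 0.899 across the 47 genes, which share library and depth). A few genes carried much of the sum. WRKY33 alone made up 23.6% of it in replicate 2 and 16.6% in replicate 1, and the 6 highest members 63.9% and 49.1%.

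**Figure D1:**
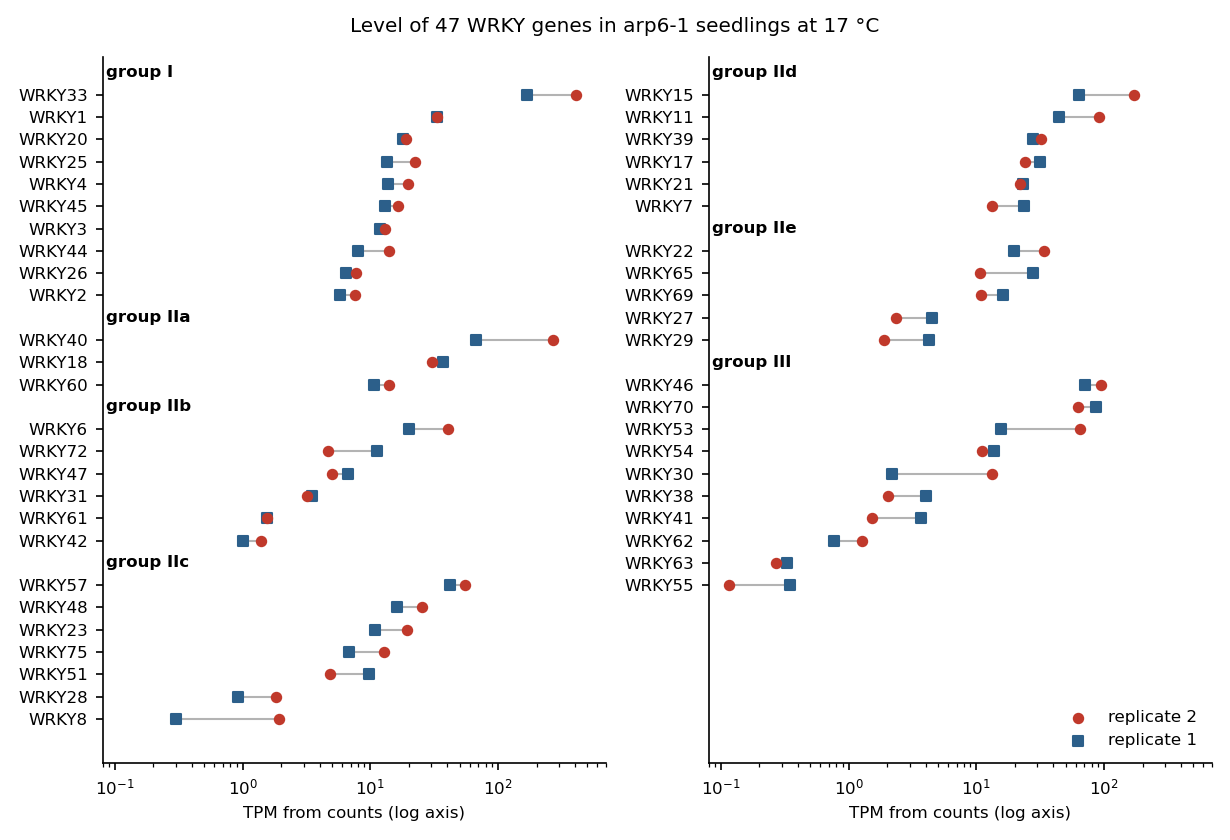
Level of each of the 47 WRKY genes in TPM computed from counts (log axis), by family group, with replicate 2 as circles and replicate 1 as squares and a grey line joining them. WRKY33 reaches 405 TPM in replicate 2 and 169.5 TPM in replicate 1, while WRKY55 and WRKY63 stay below 1 TPM in both.

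Over the family 9 of the 45 genes were at least 2-fold higher in replicate 2, that is WRKY8, WRKY30, WRKY53, WRKY40, WRKY15, WRKY33, WRKY11, WRKY6 and WRKY28. Of all 20568 genes 9.84% were that much higher. Lower by 2-fold or more were 4 members, WRKY65, WRKY72, WRKY41 and WRKY29, a share near that of all genes, 10.5%. Without the TMM factors, on total counts alone, the counts were 6 higher and 6 lower, where 8.7% and 12.2% of all genes were called. The whole interval lay beyond 2-fold in 6 higher members, where 6.42% of all genes did so, and in 1 lower member, WRKY65, where 4.29% did. The median log2 ratio of the 45 members was 0.42, beside -0.01 for all tested genes, with an SD among members of 0.98 beside 1.06. By group the median ratio was 1.87 in IIc, 1.38 in IIa, 1.36 in I, 1.12 in III, 1.09 in IId, 1.00 in IIb and 0.553 in IIe. The members nearest to 2-fold without reaching it were WRKY75 (1.95) on the higher side and WRKY51 (0.522) and WRKY38 (0.525) on the lower.

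**Figure D2:**
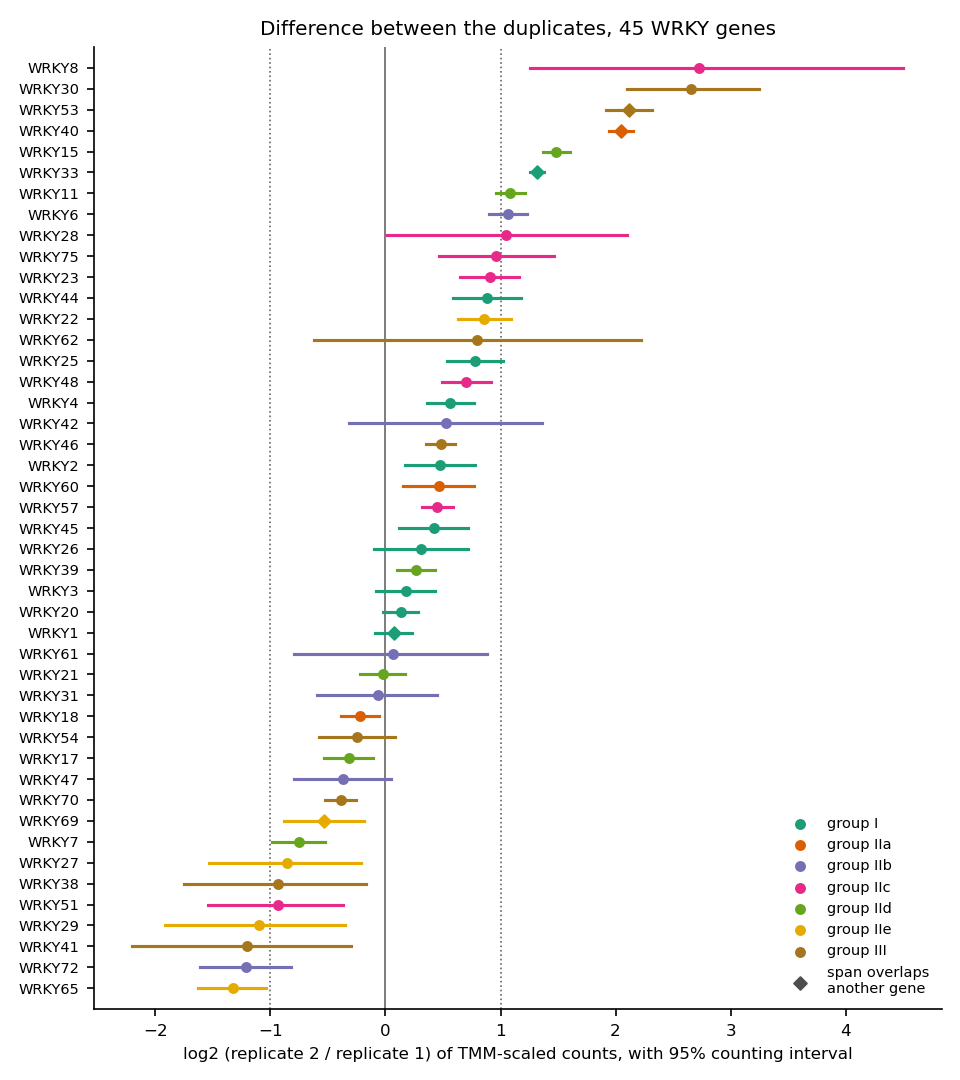
Ratio of replicate 2 to replicate 1 on the log2 scale for the 45 WRKY genes with a mean count of at least 10, with 95% counting intervals (lines), coloured by family group; dotted lines mark 2-fold, and diamonds mark genes whose span overlaps another gene. The 9 genes at the top, WRKY8 to WRKY28, lie beyond 2-fold higher and the 4 at the bottom, WRKY65 to WRKY29, beyond 2-fold lower.

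**Figure D3:**
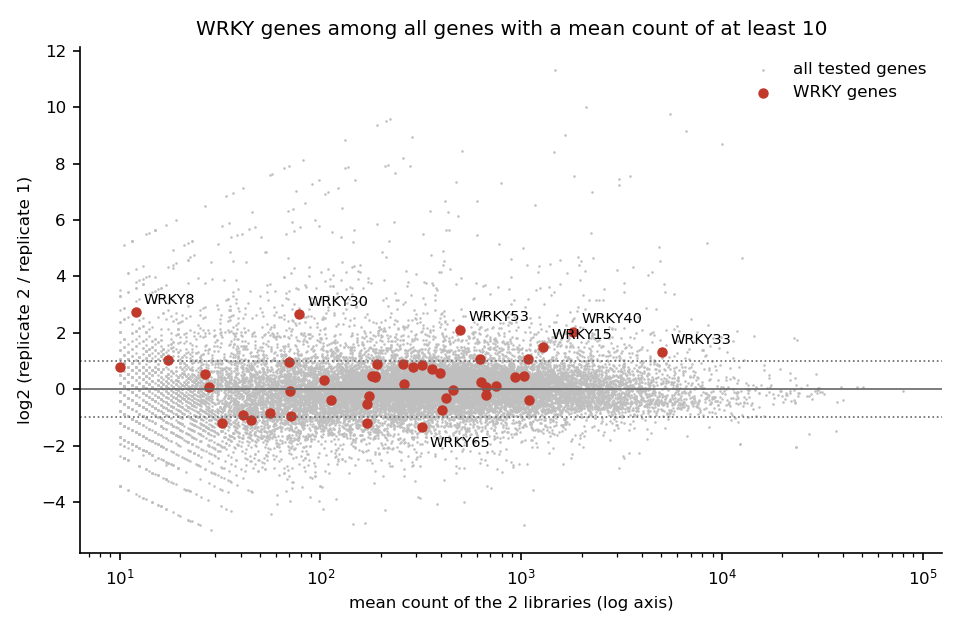
Ratio of replicate 2 to replicate 1 on the log2 scale against the mean count of the 2 libraries (log axis) for the 20568 genes with a mean count of at least 10 (grey; a count of 0 on one side is set to 3) and for 45 WRKY genes (red). WRKY33, WRKY40, WRKY15 and WRKY11 combine mean counts of 5018, 1813, 1284 and 1083 with ratios above 2-fold, and WRKY65 is the lowest ratio of the family at a log2 value of -1.33.

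WRKY33 (AT2G38470, chromosome 2, 16108361 to 16110766 in TAIR10), which is needed for resistance to necrotrophic fungi and activates genes of camalexin synthesis, was the most abundant member in both libraries. It had 5910 counts in replicate 2 and 4127 counts in replicate 1, or 405 and 169.5 TPM, and its mean of 287 ± 166 TPM (SD, n = 2) stood at percentile 97.1 of the genes with a mean count of at least 10. After scaling it was 2.49-fold higher in replicate 2 (interval 2.40 to 2.59). Its relatives WRKY25 and WRKY26, known for salt and heat tolerance, were far below it. WRKY25 had 22.4 TPM in replicate 2 and 13.6 TPM in replicate 1, so that WRKY33 exceeded it 18.1-fold and 12.5-fold in those libraries. WRKY26 had 7.67 and 6.45 TPM in replicates 2 and 1.

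The rest of group I had means between 6.69 and 33.3 TPM. WRKY1, also called ZAP1 and one of the early cloned W-box binding factors, had 33.4 TPM in replicate 2 and 33.2 TPM in replicate 1, a ratio of 1.05 (0.938 to 1.18). WRKY20 had 18.9 and 18.02 TPM in replicates 2 and 1, with a ratio of 1.10 (0.986 to 1.22). These are among the 4 members nearest to an equal level in both libraries that had a mean count of at least 50. WRKY4 and WRKY3, a related pair that acts in resistance to necrotrophs, had 19.5 TPM and 12.9 TPM in replicate 2, against 13.8 TPM and 11.9 TPM in replicate 1. WRKY44, known as TTG2 and required for trichomes and seed coat pigment, had 14.02 TPM in replicate 2 and 7.94 TPM in replicate 1, a ratio of 1.84 (1.501 to 2.27). WRKY45, an activator of a phosphate transporter, had 16.5 and 12.9 TPM, and WRKY2, which acts in the polarity of the zygote and in abscisic acid responses of seeds, 7.64 and 5.74 TPM. Of the 10 genes of this group 10 had a ratio above 1, where 10207 of all 20568 genes did. The interval lay wholly above 1 in 6 of the 10, and 1 gene, WRKY33, passed 2-fold. On total counts WRKY1 had a log2 ratio of -0.022.

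Group IIa holds WRKY40, WRKY18 and WRKY60, which bind to each other and act together in responses to powdery mildew and to abscisic acid. The trio did not keep its proportions between the libraries. WRKY40 (AT1G80840, chromosome 1, 30383691 to 30385499) had 267 TPM in replicate 2 and 67.6 TPM in replicate 1, from 2550 and 1076 counts, a ratio of 4.12 (3.84 to 4.43). WRKY18 had 30.4 TPM in replicate 2 and 37.0 TPM in replicate 1, a ratio of 0.859 (0.765 to 0.963). WRKY60 had 14.1 and 10.6 TPM, a ratio of 1.38 (1.11 to 1.71). WRKY40 thus exceeded WRKY18 by 8.79-fold in replicate 2 and by 1.83-fold in replicate 1. The authors' deposited TPM puts the pair closer, with 209 and 52.9 for WRKY40 and 35.2 and 41.3 for WRKY18 in replicates 2 and 1.

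Group IId, whose proteins also bind calmodulin, had means between 18.4 and 118 TPM. WRKY15 (AT2G23320), which acts in growth and salt stress, had 1583 counts in replicate 2 and 985 in replicate 1, or 171 and 63.9 TPM, a ratio of 2.80 (2.58 to 3.03). WRKY11 had 90.9 TPM in replicate 2 and 44.7 TPM in replicate 1, a ratio of 2.12 (1.95 to 2.31). Its close relative WRKY17, with which it shares a role as a negative regulator of basal defence, leaned the other way, with 24.0 TPM in replicate 2 and 31.3 TPM in replicate 1 and a ratio of 0.802 (0.691 to 0.929). The level of WRKY11 was therefore 3.78 times that of WRKY17 in replicate 2 and 1.43 times in replicate 1. These genes lie further apart in the deposited TPM, with 122.8 and 58.4 for WRKY11 and 24.9 and 31.3 for WRKY17. WRKY39, linked to heat tolerance, had 32.0 and 27.8 TPM in replicates 2 and 1, and WRKY21 21.8 and 23.2 TPM, with a ratio of 0.983 (0.856 to 1.13), the nearest to 1 of all members. WRKY7, which also represses defence, had 13.3 TPM in replicate 2 and 23.5 TPM in replicate 1, 1.69-fold lower in replicate 2 (1.44 to 1.98).

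Group III had means between 0.231 and 82.6 TPM. WRKY46, which acts in defence and in the drought response of stomata, had 94.5 TPM in replicate 2 and 70.7 TPM in replicate 1. WRKY70, a node between salicylic acid and jasmonate signalling, had 63.0 TPM in replicate 2 and 86.1 TPM in replicate 1, a ratio of 0.764 (0.696 to 0.837). In replicate 1 it was the second most abundant member. WRKY54, which acts with WRKY70 against leaf senescence, had 11.1 and 13.7 TPM, so that WRKY70 exceeded it 5.70-fold in replicate 2 and 6.30-fold in replicate 1. Both members of the pair had ratios below 1, but that of WRKY54, 0.844, had an interval that includes 1 (0.669 to 1.06).

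The largest differences between the duplicates in group III were those of WRKY53 and WRKY30. WRKY53 (AT4G23810), a factor that promotes leaf senescence, had 64.9 TPM in replicate 2 and 15.6 TPM in replicate 1, a ratio of 4.34 (3.78 to 4.997). WRKY30 (AT5G24110, chromosome 5, 8153115 to 8154709), a gene of early stress responses, had 123 counts in replicate 2 and 34 counts in replicate 1, or 13.2 and 2.20 TPM, a ratio of 6.30 (4.28 to 9.50). WRKY41, a close relative of these genes that is known from seed dormancy, stood on the other side. It had 13 counts in replicate 2 and 52 counts in replicate 1, or 1.53 and 3.68 TPM, 2.30-fold lower in replicate 2 (1.23 to 4.60).

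WRKY38 and WRKY62, which act together as negative regulators of basal defence, were low. WRKY38 had 2.02 TPM in replicate 2 and 4.02 TPM in replicate 1, 1.91-fold lower in replicate 2 (1.13 to 3.37). WRKY62 had 10 counts in each library, or 1.28 and 0.768 TPM. WRKY63, known as ABO3 for its part in the abscisic acid response, had 2 counts in replicate 2 and 4 in replicate 1, and WRKY55, the neighbour of WRKY54 on chromosome 2, had 1 and 5. These last 2 genes missed the minimum count, and their levels of 0.2995 ± 0.0385 and 0.231 ± 0.164 TPM were the lowest of the family. For a count of 1 the exact 95% Poisson interval runs from 0.0253 to 5.57, and for a count of 5 from 1.62 to 11.7, so the libraries cannot be told apart in WRKY55 at this depth.

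In group IIb WRKY6 was the main transcript, and the others were low. WRKY6 (AT1G62300), which acts in senescence and represses the phosphate exporter gene PHO1, had 678 counts in replicate 2 and 563 in replicate 1, or 40.6 and 20.2 TPM, a ratio of 2.10 (1.87 to 2.35). Its close relatives WRKY42, another regulator of phosphate transport, and WRKY31 stood far below it. WRKY42 had 1.38 TPM in replicate 2 and 1.00 TPM in replicate 1, and WRKY31 3.18 and 3.47 TPM, with a ratio of 0.956 (0.663 to 1.37). WRKY72, which acts in basal defence, had 68 counts in replicate 2 and 274 counts in replicate 1, or 4.65 and 11.3 TPM, 2.31-fold lower in replicate 2 (1.77 to 3.07). WRKY47 had 4.99 and 6.71 TPM in replicates 2 and 1, and WRKY61 1.55 TPM in both.

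Group IIc leaned to replicate 2, with 6 of its 7 genes above a ratio of 1, where 10207 of all 20568 genes were. WRKY57, which is linked to drought tolerance and to jasmonate-driven senescence, was its most abundant gene at 55.1 TPM in replicate 2 and 42.1 TPM in replicate 1. WRKY48, a repressor of basal defence, had 25.2 and 16.1 TPM, and WRKY23, an auxin-responsive gene of root development, 19.5 and 10.9 TPM. WRKY75, induced by phosphate shortage and active in roots, had 12.7 TPM in replicate 2 and 6.79 TPM in replicate 1, a ratio of 1.95 (1.38 to 2.76). The low genes WRKY28 and WRKY8 passed it. WRKY28, an activator of salicylic acid synthesis, had 19 counts in replicate 2 and 16 in replicate 1, a ratio of 2.07 whose interval of 1.01 to 4.30 nearly reaches 1. WRKY8, which acts in responses to fungal and viral infection, had 19 counts in replicate 2 and 5 in replicate 1, or 1.92 and 0.303 TPM. Its ratio of 6.61 was the largest of the family, with a wide interval of 2.39 to 22.7. WRKY51, the gene with the variant motif, was the exception of the group, with 4.84 TPM in replicate 2 and 9.68 TPM in replicate 1, 1.92-fold lower in replicate 2 (1.29 to 2.92).

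Group IIe leaned to replicate 1, with 4 of its 5 genes below a ratio of 1, where 10361 of all 20568 genes were. WRKY65 (AT1G29280, chromosome 1, 10236367 to 10237467) had 119 counts in replicate 2 and 520 counts in replicate 1, or 10.6 and 27.9 TPM, 2.51-fold lower in replicate 2 (2.05 to 3.09). WRKY69 had 10.8 and 16.3 TPM in replicates 2 and 1. WRKY22 and WRKY29, which lie together in the kinase cascade below the flagellin receptor, went opposite ways. WRKY22 had 34.1 TPM in replicate 2 and 19.7 TPM in replicate 1, a ratio of 1.81 (1.55 to 2.12), while WRKY29 had 19 counts in replicate 2 and 71 in replicate 1, or 1.89 and 4.25 TPM, 2.15-fold lower in replicate 2 (1.28 to 3.77). WRKY22 thus stood 18.02-fold above WRKY29 in replicate 2 and 4.63-fold above it in replicate 1. Their deposited TPM is closer, with 31.2 and 17.6 for WRKY22 and 2.48 and 4.39 for WRKY29. WRKY27, which affects bacterial wilt, had 2.37 and 4.48 TPM.

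Some of these counts may hold reads of neighbours. The spans of WRKY33, WRKY40, WRKY53, WRKY1 and WRKY69 overlap a gene on the opposite strand in the files, and whether the counting used strand is not given in the sources used here. The overlap is short in 4 of the 5, between 1.08% and 6.29% of the member's span. In WRKY53 it is 341 bases or 21.1%, shared with 3xHMG-box2, a chromatin protein gene of dividing cells, which had 234 counts in replicate 2 and 1343 in replicate 1. The neighbour of WRKY40 had 101 counts in replicate 2 and 289 in replicate 1, and that of WRKY33 had 104 and 227. The part of these reads in the members' ratios was not tested. The authors' deposited TPM gives the same 9 members at least 2-fold higher. In it WRKY53 had 62.3 in replicate 2 and 18.7 in replicate 1, and WRKY33 had 298 and 122. In WRKY55 the direction differs, with 0.154 in replicate 2 and 0.0903 in replicate 1 in the authors' deposited TPM, where the counts are 1 and 5.

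Since WRKY genes are known to be bound by WRKY proteins, promoters of members past 2-fold that hold at least 2 W-box matches are shown, 4 of them higher and 2 lower in replicate 2. The 250 bases before the annotated gene start were read from RefSeq TAIR10.1 for each gene and searched on both strands for the W-box, TTGACC or TTGACT, each of which contains the core TTGAC. At least 1 such match was in the promoters of 6 of the 9 members that were 2-fold higher in replicate 2, of 3 of the 4 that were lower, and of 7 of the 32 within 2-fold. Among all tested genes it was in 28.7% of the promoters of those higher and in 30.9% of those lower. Over the whole family it was in 17 of 47 promoters, or 36.2%, against 28.5% of the promoters of all 26686 protein-coding nuclear genes. The shorter core TTGAC was in 9 of the 9 higher members, 3 of the 4 lower and 13 of the 32 others, beside 11999 of the 26686 promoters. It was in 48.7% of the promoters of all genes called higher and in 48.6% of those called lower. WRKY30 has the most matches, 3, at 124, 69 and 61 bases before the start. WRKY33 has them at 96 and 32 bases, WRKY15 at 131 and 98, and WRKY53 at 219 and 71. Of the members lower in replicate 2, WRKY29 has them at 40 and 26 bases and WRKY41 at 194 and 78. WRKY40, WRKY6 and WRKY8 hold the core once without the full element. A match is a run of letters and says nothing of binding in these seedlings. The lines below give the promoters 5′ to 3′ on the gene's strand, with the matches in capitals.
WRKY30 (chr5:8154711-8154960, minus strand): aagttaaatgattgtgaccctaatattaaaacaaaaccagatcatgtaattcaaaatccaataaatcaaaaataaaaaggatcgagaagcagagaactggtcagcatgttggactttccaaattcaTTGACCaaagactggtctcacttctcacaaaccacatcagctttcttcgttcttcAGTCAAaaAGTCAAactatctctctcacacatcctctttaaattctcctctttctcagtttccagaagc
WRKY33 (chr2:16107985-16108234, plus strand): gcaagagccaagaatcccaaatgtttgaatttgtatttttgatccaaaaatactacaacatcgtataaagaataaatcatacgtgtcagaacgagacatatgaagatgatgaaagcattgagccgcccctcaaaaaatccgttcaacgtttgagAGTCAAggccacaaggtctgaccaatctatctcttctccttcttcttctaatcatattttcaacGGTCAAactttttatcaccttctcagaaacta
WRKY15 (chr2:9924636-9924885, plus strand): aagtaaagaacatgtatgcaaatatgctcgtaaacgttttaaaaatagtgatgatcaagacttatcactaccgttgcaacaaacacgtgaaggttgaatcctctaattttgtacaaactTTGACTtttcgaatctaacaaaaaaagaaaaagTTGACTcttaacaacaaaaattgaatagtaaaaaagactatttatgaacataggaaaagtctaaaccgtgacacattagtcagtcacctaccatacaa
WRKY53 (chr4:12393983-12394232, minus strand): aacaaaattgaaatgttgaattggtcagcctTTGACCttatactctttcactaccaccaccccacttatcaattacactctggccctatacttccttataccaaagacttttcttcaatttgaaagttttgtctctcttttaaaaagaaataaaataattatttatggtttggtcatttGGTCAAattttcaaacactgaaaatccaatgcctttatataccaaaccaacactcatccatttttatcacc
WRKY29 (chr4:12291382-12291631, plus strand): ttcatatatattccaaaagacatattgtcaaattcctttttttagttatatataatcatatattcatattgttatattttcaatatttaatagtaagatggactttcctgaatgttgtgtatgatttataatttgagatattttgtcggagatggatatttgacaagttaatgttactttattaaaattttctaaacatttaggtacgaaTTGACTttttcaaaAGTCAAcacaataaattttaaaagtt
WRKY41 (chr4:6758848-6759097, plus strand): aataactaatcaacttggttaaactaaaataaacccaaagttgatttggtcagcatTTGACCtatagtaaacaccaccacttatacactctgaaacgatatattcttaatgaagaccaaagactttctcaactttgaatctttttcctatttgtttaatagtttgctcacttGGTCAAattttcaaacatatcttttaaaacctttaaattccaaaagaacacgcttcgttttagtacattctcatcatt

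The core of the abscisic acid response element, ACGTG, was also searched in the same windows, since dehydration genes differed so widely between the libraries. It was in 4 of the 9 promoters of members higher in replicate 2, in 0 of the 4 lower and in 10 of the 32 others. Among all genes it was in 39.2% of the promoters of those at least 2-fold higher in replicate 2, in 24.3% of those lower and in 23.1% of all. WRKY15 and WRKY40 hold 2 matches each, and WRKY33 and WRKY28 hold 1 each.

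The kinases and partners of the WRKY proteins were read beside the members, whose median ratio was 1.34. Of 9 genes on this list 1 was at least 2-fold higher in replicate 2 and 0 were lower, with a median ratio of 1.20. Of all tested genes 9.84% were that much higher and 10.5% lower. MPK3, a kinase that phosphorylates WRKY33, was the highest at 179.5 TPM in replicate 2 and 152 TPM in replicate 1. MKS1, which links WRKY33 to the kinase MPK4, was the lowest, with 19.96 TPM in replicate 2 and 12.5 TPM in replicate 1. SIB2, a plastid and nuclear protein that binds WRKY33, was the one gene past 2-fold, with 39.4 TPM in replicate 2 and 19.9 TPM in replicate 1, a ratio of 2.06 (1.70 to 2.502). The spans of SIB2, MKS1 and MPK6 overlap other genes.

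Known targets of WRKY factors went different ways. Of 15 genes 12 reached the minimum count, and 4 were higher and 1 lower in replicate 2, where 9.84% and 10.5% of all tested genes were. The genes of camalexin synthesis below WRKY33 were not alike. CYP71A13 had 48.7 TPM in replicate 2 and 19.5 TPM in replicate 1, a ratio of 2.61 (2.27 to 2.99) that is uncertain because a near-identical paralog could share its reads, while PAD3 had 5.63 and 5.91 TPM, a ratio of 0.995 (0.734 to 1.34). ACS2, an ethylene synthesis gene that WRKY33 also activates, had 103 counts in replicate 2 and 16 in replicate 1, a ratio of 11.2 (6.58 to 20.3), and its relative ACS6, the highest of the list, had 211 and 185 TPM. PR1, a marker of the salicylic acid response, had 208 counts in replicate 2 and 22 in replicate 1, a ratio of 16.5 (10.6 to 26.8). ABI5, an abscisic acid factor whose gene WRKY40 represses, had 58 and 11 counts, a ratio of 9.18 (4.77 to 19.4).

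The phosphate genes below WRKY6, WRKY42, WRKY45 and WRKY75 gave no common direction. The uptake transporter PHT1;1 had 10.8 TPM in replicate 2 and 67.0 TPM in replicate 1, 5.95-fold lower in replicate 2 (5.05 to 7.07), and it too has a near-identical paralog. PHT1;4 had 31.8 and 19.96 TPM in replicates 2 and 1, a ratio of 1.66 (1.46 to 1.90), and the exporter PHO1 55.7 and 85.1 TPM, a ratio of 0.683 (0.638 to 0.7305). ABI4 and SAG12 had 0 counts in both libraries, for which the floor used for a count of 0, 3 counts per library (the one-sided 95% limit), gives 0.242 CPM in replicate 2 and 0.148 CPM in replicate 1.

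Lists of processes in which WRKY genes act were read in the same way. They too were chosen with earlier results of these data known. The shares to set beside their counts are those of all tested genes, 9.84% higher and 10.5% lower. Of 9 salicylic acid genes 3 were higher in replicate 2 and 0 lower, with a median ratio of 1.31. PR2 had 110.0 TPM in replicate 2 and 8.85 TPM in replicate 1 and PBS3 15.9 and 4.52 TPM, whereas ICS1, the synthesis enzyme, had 20.8 and 19.8 TPM. PR5 went the other way and was the 1 gene of the 9 with a ratio below 1. It had 142 counts in replicate 2 and 347 in replicate 1, a ratio of 0.712 (0.582 to 0.868). FMO1, the lowest of the list, had 18 and 7 counts in replicates 2 and 1. Of the 9 early stress genes 3 were higher and 0 lower, with a median of 1.87: ZAT12 at 3.26-fold, JAZ1 at 2.35-fold and ZAT10 at 2.25-fold. The highest, SZF1, had 436 TPM in replicate 2 and 243 TPM in replicate 1, and the lowest, ERF6, 41.7 and 32.4 TPM. Of the 5 senescence genes that reached the minimum count 5 were higher, from 2.19-fold in NYE1 to 58.5-fold in SAG13, which had 370 counts in replicate 2 and 11 in replicate 1. Between them lay the regulators NAP at 11.6-fold and ORE1 at 4.60-fold, and SEN1 at 3.82-fold. SAG12, the defining marker of late senescence, was at 0 in both. The summed level of the 6 senescence genes was 174 TPM in replicate 2 and 44.6 TPM in replicate 1, and that of the 8 root markers 80.6 and 134 TPM. Root genes stood lower in replicate 2 where they passed 2-fold, in 3 of 8: EXPA7 of root hairs, 5.47-fold, COBL9, 2.82-fold, and PIN2, 2.76-fold. The highest root marker, SCR, had 54.1 TPM in replicate 2 and 65.9 TPM in replicate 1, and the lowest, PLT1, 0.528 and 1.09 TPM. In whole seedlings fewer root cells and less RNA per cell cannot be told apart.

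**Figure D4:**
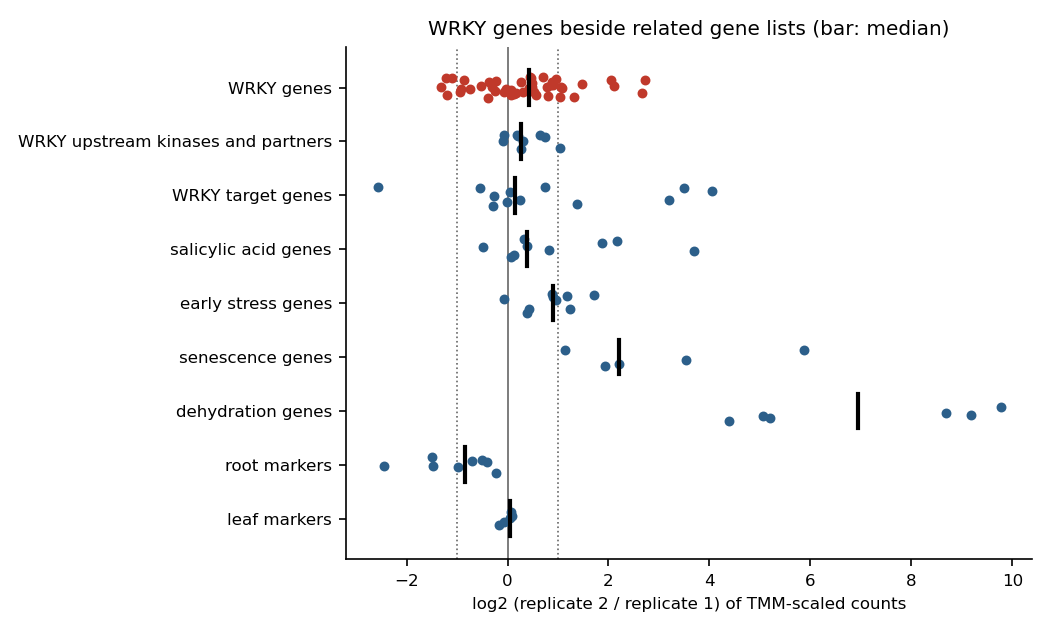
Ratio of replicate 2 to replicate 1 on the log2 scale for each gene with a mean count of at least 10 in the WRKY family (red) and in 8 related lists (blue), with black bars at the medians and dotted lines at 2-fold. The WRKY median of 0.42 lies between that of the salicylic acid genes, 0.39, and that of the early stress genes, 0.90, while dehydration genes have a median of 6.94 and root markers of -0.85.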

How the data were processed

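RNA-seq of 2 libraries of 1 group was used. Per the labels, RNA of ground seedlings was made into TruSeq libraries and read in pairs on a HiSeq2000. Among the tools in the submitters' processing notes are TopHat, Trimmomatic, Picard and FastQC, with the build TAIR10. How reads were counted, and whether by strand, is not given in the sources used here. The authors deposited raw counts per gene, FPKM and TPM, per the file headers. The deposited TPM equals the deposited FPKM rescaled to a common sum.

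TPM was recomputed from the counts and summed exon lengths in the annotation of TAIR10.1, which matched 97.8% of gene IDs; 755 genes without a length stayed out of TPM. Spans are those of the files, with starts made 1-based; promoter coordinates are those of TAIR10.1. Library sizes were scaled by TMM (edgeR 4.0.16, R 4.3.3) over genes with a mean count of at least 10, with factors of 0.968 for replicate 2 and 1.03 for replicate 1. Ratios carry 95% Clopper-Pearson intervals and counts exact Poisson intervals (SciPy 1.17.1), which cover counting error only: without molecular identifiers, reads may stem from the same molecule. The ratio was tested on simulated data. In all-gene counts a 0 beside a count was set to 3. With 1 group no comparison between conditions and no test was possible.

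The members, gene lists and call rules were chosen with earlier results of these data known. The family groups follow common usage, which differs between sources for WRKY45, kept here in group I. By rule, values were given for members past 2-fold, the 6 highest and 6 lowest, the 4 nearest an equal ratio with a mean count of at least 50, and in each list the genes past 2-fold, the highest and the lowest; other members and list genes were added after their values were seen. Alternatives were DESeq2 1.42.0 size factors, total counts, other count minimums, a prior count, the deposited TPM, another pseudocount, other thresholds, removal of overlapping genes and each replicate alone.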

Additional observations from a re-analysis of the deposited data

How the results depend on the processing

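No paired analysis was possible because the labels give 1 group. The median level of the WRKY genes, 3.83 on the log2(TPM + 1) scale, was 3.84 without replicate 1 and 3.80 without replicate 2, 3.64 with the deposited TPM, 3.74 with a pseudocount of 0.1 and 3.96 over members with a mean count of at least 10. At least 10 TPM was reached by 28 members, and by 30 without replicate 1 and 28 without replicate 2. The count of members lower in replicate 2, 4, became 2 with a mean count of at least 50 and 1 where the whole interval had to lie beyond 2-fold; at 1.5-fold 16 members were higher and 8 lower. Over all genes 2023 were higher and 2165 lower. These counts became 1320 and 883 with the whole interval beyond 2-fold and 3857 and 4351 at 1.5-fold. With no filter on counts 3497 were higher, but there a 0 set to 3 can turn the direction. WRKY59, outside the list, had 0 counts in replicate 2 and 2 in replicate 1, and got a ratio of 2.61. With a mean count of at least 50, 1378 genes were lower. The median log2 ratio of the members was 0.31 with no filter. WRKY33, WRKY40, WRKY53, WRKY30, WRKY15 and WRKY8 were past 2-fold in every one of the settings that tested them (11 or 12 of 12 each), and WRKY65 in 12. The settings include the main one, the filters and the 1.5-fold threshold, which leave a ratio as it was. WRKY11, WRKY6 and WRKY28 fell short of 2-fold on total counts, WRKY28 also with a prior count of 2, WRKY29 did so in the deposited TPM, and WRKY41 did so when replicate 1 was thinned to the depth of replicate 2, a setting that, like TMM over nuclear genes and the settings for the count at 10 TPM, was chosen after seeing the data. Of 391 single log2 ratios under the alternatives 389 stayed inside the counting interval of the gene. The direction of a call changed in 0. Part of this was fixed in advance, because a filter does not change a ratio. It holds for 37 values with a mean count of at least 50, 45 with no filter and 40 without overlapping genes. The exceptions were WRKY33 on total counts (1.22) and WRKY53 in the deposited TPM (1.74). Total counts shift every log2 ratio by the same amount, and WRKY33 has the narrowest interval of the family, 1.26 to 1.375 on this scale. For WRKY53 the cause was not tested. Depth limits WRKY8, WRKY28, WRKY41, WRKY55, WRKY62 and WRKY63 most.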
